A study of Saccharomyces cerevisiae with 12 samples.

Results

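The 10 genes TPS1, TPS2, TPS3, TSL1, NTH1, NTH2, GSY1, GSY2, GLC3 and GPH1 encode the main enzymes of trehalose and glycogen metabolism in the budding yeast Saccharomyces cerevisiae. They were chosen by gene symbol, and all 10 were found among the 6216 features of the deposited count table and passed the filter on low counts. Trehalose, a disaccharide, and glycogen, a branched polymer of glucose, are the main carbohydrate reserves of yeast, and trehalose also protects proteins and membranes under stress. Tps1 (trehalose-6-phosphate synthase) and Tps2 (trehalose-6-phosphate phosphatase) make trehalose in a complex with the regulatory subunits Tps3 and Tsl1, and the neutral trehalases Nth1 and Nth2 break it down. The glycogen synthases Gsy1 and Gsy2 extend glycogen chains, the branching enzyme Glc3 adds branch points, and the phosphorylase Gph1 releases glucose-1-phosphate from them. Many of these genes are known targets of the stress factors Msn2 and Msn4, which protein kinase A holds back in cells growing on abundant glucose.

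All 4 groups were of the strain BY4741, a haploid of mating type a in which HIS3, LEU2, MET17 and URA3 are deleted wholly or in part, and the labels name no other genetic change. Cultures growing exponentially in rich glucose medium (YPD) were exposed to 500 nM concanamycin A, a macrolide inhibitor of the vacuolar proton pump (V-ATPase), for 0, 1, 3 or 6 h, and 3 libraries were made at each time. Libraries from cultures kept as long with no compound were not analysed here. Exposure and time in culture therefore cannot be told apart. No label states whether the 3 libraries were grown as separate cultures. The p-values therefore cover the spread among these libraries and no more, and that spread may be technical. Over the 12 libraries, LEU2, URA3 and MET17 had 8, 20 and 0 counts in all, HIS3 had 363 to 860 counts per library, and all 5 genes specific to mating type a were detected. Of genes specific to mating type alpha, MF(ALPHA)1 and MF(ALPHA)2 had 11 and 26 counts in all. STE3 had 30 to 92 counts per library and SAG1 132 to 232, against 130 to 551 for MFA1, the lowest of the a-specific genes. Detection alone therefore does not tell the mating types apart. Libraries held 8508894 to 11008709 counts, of which the 10 genes took 0.161% to 0.464%. Levels are given in CPM, the usual scaling of a count by the library total, here with the total adjusted by TMM. In these bulk samples, a lower level in every cell and a smaller share of cells with a high level cannot be told apart.

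Each of the 10 coding sequences is a single exon that overlaps no other annotated gene, and the coordinates of genes given below are those of the coding sequence in build R64. The stretches below lie upstream of 6 of them and are shown because the stress response element, AGGGG or CCCCT on the other strand, occurs at least once in the first 5 and not in the last, which allows the trehalase paralogs NTH1 and NTH2 to be compared. Each is the 120 bases with the most elements within 500 bases before the start codon, or, for NTH2, the middle of those 500, read 5′ to 3′ on the strand of the gene from the RefSeq genome of build R64, with elements in capitals. They come from chrXVI:860904-861023 (plus strand) for GPH1, chrV:132792-132911 (plus) for GLC3, chrVI:176739-176858 (minus) for GSY1, chrII:490637-490756 (minus) for TPS1, chrIV:452706-452825 (minus) for NTH1 and chrII:241474-241593 (minus) for NTH2.
GPH1: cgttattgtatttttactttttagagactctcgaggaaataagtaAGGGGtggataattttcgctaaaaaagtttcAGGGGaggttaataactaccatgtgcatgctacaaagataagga
GLC3: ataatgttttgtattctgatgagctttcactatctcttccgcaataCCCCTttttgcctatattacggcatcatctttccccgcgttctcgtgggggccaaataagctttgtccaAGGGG
GSY1: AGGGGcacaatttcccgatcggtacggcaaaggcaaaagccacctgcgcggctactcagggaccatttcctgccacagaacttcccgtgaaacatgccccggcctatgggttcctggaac
TPS1: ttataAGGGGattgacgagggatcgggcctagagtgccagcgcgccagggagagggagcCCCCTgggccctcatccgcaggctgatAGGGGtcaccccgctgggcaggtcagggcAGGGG
NTH1: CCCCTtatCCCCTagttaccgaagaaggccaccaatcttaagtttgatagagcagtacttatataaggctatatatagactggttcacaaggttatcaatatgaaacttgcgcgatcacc
NTH2: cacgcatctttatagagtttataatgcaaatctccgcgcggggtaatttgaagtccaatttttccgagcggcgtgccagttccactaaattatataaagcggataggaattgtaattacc

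Within the 500 bases, 9 of the 10 genes held at least 2 elements and NTH2 held none, against 34.1% of 6000 genes with at least 1 and 8.13% with at least 2. In the shorter window from 250 bases before to 50 after the start of the coding sequence, 6 of the 10 held at least 1 and 4 at least 2, against 21.6% and 2.93% of 6001 genes. The elements of GPH1, at 357 and 326 bases before the start codon, lie outside this shorter window. The longer window was chosen after the data were seen. A match is a string of letters and says nothing of occupancy, and windows may run into a neighbouring gene.

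The 10 genes moved in different directions. NTH1 rose at every time, and TSL1 rose at 6 h. At 1 and 3 h the 4 glycogen genes stood lower in all 6 libraries than in 0 h replicates 1 and 2 and lay on both sides of 0 h replicate 3 except for GSY1, below it at 3 h, and GLC3, above it. Of the genes of trehalose synthesis, TPS2 and TPS3 fell at 3 h. By edgeR's quasi-likelihood test, at an adjusted p under 0.05 over 5615 features, 1 gene (NTH1) rose and 2 (GSY1 and GPH1) fell at 1 h, beside 24.5% of all features higher and 23.4% lower. At 3 h 1 rose (NTH1) and 5 fell (TPS2, TPS3, GSY1, GSY2 and GPH1), beside 26.3% higher and 24.5% lower. At 6 h 2 rose (TSL1 and NTH1) and 1 fell (GSY1), beside 33.0% higher and 28.9% lower. The median log2 fold change of the 10 genes was -0.29 at 1 h, -0.66 at 3 h and -0.14 at 6 h, and that of all features was -0.00, 0.02 and 0.05. These 3 comparisons share the libraries at 0 h. Between consecutive times, 1 gene (TPS3) fell from 1 to 3 h, beside 17.6% of features, and none rose, beside 16.9% (0 at an unadjusted p under 0.05, and 0 by DESeq2). In a fit of those 2 times alone 5 fell, beside 24.4% of features. From 3 to 6 h 4 rose (TPS1, TSL1, NTH1 and NTH2), beside 21.0% of features, and none fell, beside 21.7% (again 0 unadjusted and 0 by DESeq2). Over the 4 times 8 of the 10 changed, all but GSY2 and GLC3, beside 78.5% of all features, a share near that of the 10. With total counts in place of TMM, the median log2 fold change of all features was 0.21, 0.35 and 0.34 at 1, 3 and 6 h. Of the 10 genes 3 then rose and 2 fell at 1 h, beside 45.9% of features higher and 10.7% lower. Under that scaling 1 rose and 2 fell at 3 h, beside 63.7% and 8.87%, and 4 rose and 1 fell at 6 h, beside 58.4% and 14.4%.

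**Figure D1:**
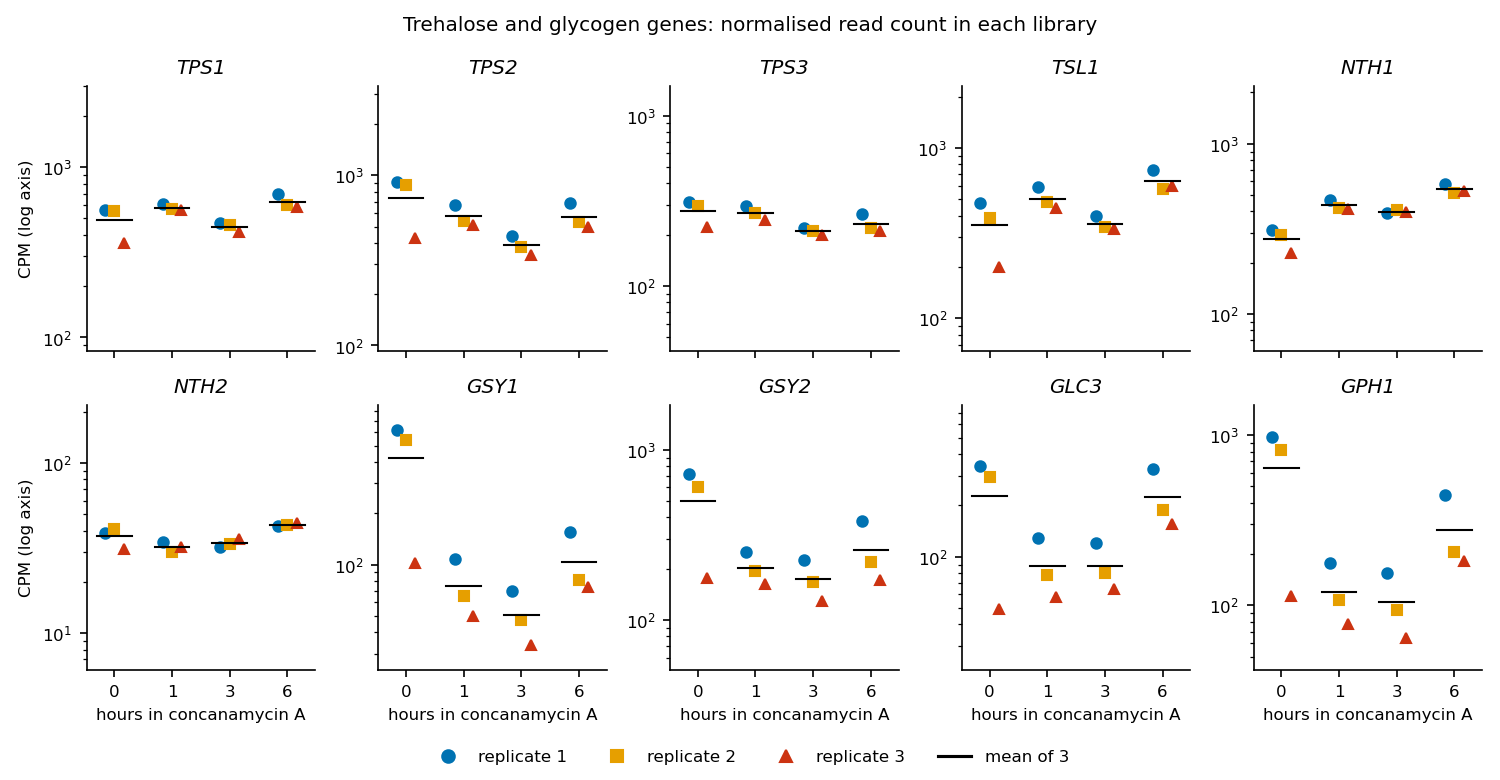
Normalised read count (CPM, log axis, each panel spanning the same fold range) of each gene in the 12 libraries against hours in concanamycin A, with the replicate as marker shape and the mean of 3 as a bar. For GPH1, GSY1, GSY2 and GLC3, 0 h replicate 3 sits far below the other 2 libraries at 0 h, while for NTH1 every library after exposure sits above all 3 at 0 h.

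The counts of genes that fell depended on which of the 3 libraries at 0 h was left out. The library 0 h replicate 3 was singled out because stress genes were known to stand low in it. All 10 genes were lower in this library than in both others at 0 h, a pattern found in 40.2% of all 5615 features. Its level, as a percentage of the mean of the other 2, was 12.7% for GPH1, 15.5% for GLC3, 17.6% for GSY1 and 26.7% for GSY2. It was 46.4% for TSL1, 48.2% for TPS2, 64.3% for TPS1, 73.0% for TPS3, 75.8% for NTH1 and 77.6% for NTH2. Without this library, 6 of the 10 genes fell at 1 h, 8 at 3 h and 5 at 6 h, beside 29.2%, 30.2% and 32.4% of 5642 features lower, and 1, 1 and 2 rose, beside 23.3%, 26.1% and 31.2% higher. From 1 to 3 h 4 then fell, beside 21.0% lower (21.5% higher), from 3 to 6 h 7 rose, beside 24.9% higher (25.7% lower), and all 10 changed over the 4 times, beside 83.8%. Leaving out 0 h replicate 3, the lowest of its 3 in all 10 genes, raises their mean at 0 h. Larger falls follow from that choice and are no separate support for a fall. Without 0 h replicate 1 the genes that fell were 1 at 1 h, 1 at 3 h and 0 at 6 h, beside 1209, 1200 and 1572 of 5637 features. Without 0 h replicate 2 they were 1, 2 and 0, beside 1287, 1304 and 1607 of 5639. Replicates 1 and 3 also stood apart at other times. Replicate 1 was the highest of its 3 at all 4 times for 8 of the 10 genes, beside 7.91% of features, and replicate 3 the lowest for 7 of the 10, beside 8.32%. The main fit holds no term for the replicate. With a replicate block 1 gene rose and 3 fell at 1 h, beside 28.0% and 26.3% of features. With that block 1 rose and 5 fell at 3 h (29.5% and 26.8%), and 4 rose and 3 fell at 6 h (36.3% and 30.6%).

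TPS1, the trehalose-6-phosphate synthase (YBR126C, chrII:488905-490392), was at 565, 552 and 359 CPM in replicates 1, 2 and 3 at 0 h and at 608, 569 and 561 at 1 h. It was at 468, 456 and 416 CPM at 3 h and at 698, 604 and 582 at 6 h. The libraries at 6 h lay above all 3 at 0 h, and the other times overlapped with 0 h. Against 0 h its log2 fold change was 0.24 ± 0.14 (SE) at 1 h, -0.14 ± 0.14 at 3 h and 0.35 ± 0.14 at 6 h, with adjusted p of 0.198, 0.440 and 0.0531. The value at 3 h was -0.36 ± 0.07 without 0 h replicate 3 (7.72e-04) and 0.19 with total counts, and that at 6 h was 0.46 without 0 h replicate 1 (0.0250). The value at 6 h also passed the threshold by DESeq2 (0.0307), with total counts (0.00229) and with a minimum of 10 CPM (0.0495), and that at 1 h with total counts (0.44, 0.0242). All 3 libraries at 3 h lay below all 3 at 1 h, with a log2 fold change of -0.38 ± 0.14 (adjusted p = 0.0661). That value passed the threshold in 1 of the 12 fits that left out a library, the one without 0 h replicate 3 (3.57e-04). It also passed by DESeq2 (0.0210), with a replicate block (0.0180) and in a fit of the 2 times alone (5.13e-05). TPS1 rose from 3 to 6 h by 0.49 ± 0.14 on the log2 scale (adjusted p = 0.0188), a call that was lost without 3 h replicate 3 (0.0675) or 6 h replicate 1 (0.0749).

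TPS2, the trehalose-6-phosphate phosphatase (YDR074W, chrIV:593893-596583), was at 909.9, 877 and 431 CPM at 0 h, at 669, 539.9 and 509.8 at 1 h, at 439.6, 381 and 342 at 3 h, and at 683, 529 and 500.1 at 6 h. Both 0 h replicates 1 and 2 lay above every exposed library, and replicate 3 lay among those at 3 h. TPS2 fell at 3 h by 0.93 ± 0.26 on the log2 scale (adjusted p = 0.0137), or by 1.24 ± 0.17 without 0 h replicate 3 (3.70e-04). The adjusted p at 3 h was 0.0618 without 0 h replicate 1, 0.0505 without 3 h replicate 3 and 0.0631 with total counts. At 1 and 6 h the log2 fold changes were -0.37 ± 0.26 and -0.37 ± 0.26 (adjusted p = 0.265 and 0.230), and both passed the threshold only without 0 h replicate 3, at -0.68 (0.0102) and -0.69 (0.00756), among the fits that left out a library.

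TPS3 (YMR261C, chrXIII:790205-793369) encodes a regulatory subunit of the synthase complex. It was at 309.5, 293 and 220.1 CPM at 0 h, at 292, 267 and 243 at 1 h, at 219, 210.0 and 199.6 at 3 h, and at 264, 217 and 211 at 6 h. All 3 libraries at 3 h lay below all 3 at 0 h. At 1 h its log2 fold change was -0.04 ± 0.12 (adjusted p = 0.821), and 0.17 with total counts. TPS3 fell at 3 h by 0.39 ± 0.12 on the log2 scale against 0 h (adjusted p = 0.0200), or by 0.56 ± 0.10 without 0 h replicate 3 (2.57e-04), and the call with all libraries was lost without 0 h replicate 1 (0.0835), 0 h replicate 2 (0.0608) or 3 h replicate 3 (0.0675), and with total counts (0.676). Its fall from 1 to 3 h, by 0.35 ± 0.12 (adjusted p = 0.0443), was lost without 0 h replicate 2 (0.0629), 1 h replicate 1 (0.147) or 2 (0.0979), any of the 3 libraries at 3 h (0.0688, 0.101 and 0.132) or 6 h replicate 2 (0.0564), and with total counts (0.155). At 6 h its log2 fold change was -0.25 ± 0.12 (0.0947), or -0.43 ± 0.10 without 0 h replicate 3 (0.00154), -0.36 without 6 h replicate 1 (0.0307), and 0.04 with total counts. By DESeq2 it was -0.28 at 6 h, past the threshold (0.0468).

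TSL1 (YML100W, chrXIII:70624-73920) encodes the other regulatory subunit. It was at 474, 389.7 and 200.4 CPM at 0 h, at 586, 482 and 445 at 1 h, at 399.6, 342 and 333 at 3 h, and at 741, 575 and 601 at 6 h. The 3 libraries at 6 h lay above all 3 at 0 h and above all at 3 h. TSL1 rose at 6 h by 0.85 ± 0.26 on the log2 scale, 1.80-fold (adjusted p = 0.0179), and by 0.52 ± 0.16 without 0 h replicate 3 (0.0220). That call was lost without 6 h replicate 1 (0.0610) and in a fit of the 2 times alone (0.0654). The rise from 3 to 6 h was 0.83 ± 0.26 (adjusted p = 0.0283), and it was lost without 3 h replicate 2 (0.0774), 3 h replicate 3 (0.0855) or 6 h replicate 1 (0.0953). At 1 h the log2 fold change was 0.51 ± 0.26 (0.138), past the threshold only without 0 h replicate 1 (0.0441) or with total counts (0.0483). At 3 h it was 0.01 ± 0.26 (0.973), and -0.31 ± 0.16 without 0 h replicate 3 (0.142).

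NTH1, the neutral trehalase that hydrolyses most cytosolic trehalose (YDR001C, chrIV:450220-452475), had the smallest adjusted p of the 10 at each time against 0 h. It was at 309, 289.7 and 227 CPM at 0 h, at 469, 421 and 414 at 1 h, at 392, 405 and 398 at 3 h, and at 583, 512 and 526 at 6 h. All 9 exposed libraries lay above all 3 at 0 h. NTH1 rose by 0.66 ± 0.10 on the log2 scale at 1 h (adjusted p = 1.08e-04), by 0.53 ± 0.10 at 3 h (5.70e-04) and by 0.97 ± 0.10 at 6 h (1.81e-06), and by 0.44 ± 0.10 from 3 to 6 h (0.00299). Leaving out 0 h replicate 3, the 3 values against 0 h were 0.50 ± 0.07, 0.38 ± 0.07 and 0.81 ± 0.07. Each of these 4 calls held in all 12 fits that left out a library, with adjusted p up to 0.0166, and in every other setting tried. The 2 elements at the 5′ end of the stretch printed for NTH1 lie 350 to 338 bases before its start codon, and a further one lies 152 bases before it.

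NTH2, the trehalase paralog with no element in its 500 bases (YBR001C, chrII:238941-241283), was the lowest of the 10 genes. It was at 38.9, 41.0 and 31.0 CPM at 0 h, at 34.1, 29.8 and 32.0 at 1 h, at 31.8, 33.5 and 35.9 at 3 h, and at 42.4, 43.2 and 44.4 at 6 h. The libraries at 6 h lay above all 9 others. NTH2 rose from 3 to 6 h by 0.36 ± 0.10 on the log2 scale (adjusted p = 0.00946), in all 12 fits that left out a library. Against 0 h its log2 fold change was -0.21 ± 0.10 at 1 h, -0.13 ± 0.10 at 3 h and 0.23 ± 0.10 at 6 h, with adjusted p of 0.0925, 0.281 and 0.0554. With 0 h replicate 3 left out it fell by 0.36 ± 0.08 at 1 h (0.00197) and by 0.27 ± 0.08 at 3 h (0.0112), while the value at 3 h with total counts was 0.20. Without 0 h replicate 2 the value at 6 h passed the threshold (0.27, adjusted p = 0.0432), as it did with total counts (0.53, 6.32e-04) and with a minimum of 10 CPM (0.24, 0.0456).

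GSY1, the minor glycogen synthase (YFR015C, chrVI:174265-176391), was at 616, 543 and 102 CPM at 0 h, at 107, 65.7 and 49.99 at 1 h, at 70.4, 47.3 and 33.6 at 3 h, and at 155, 81.1 and 73.8 at 6 h. Replicates 1 and 2 at 0 h lay far above all 9 exposed libraries. Replicate 3 at 0 h lay above all 3 at 3 h but within the range of those at 1 and 6 h. GSY1 fell at all 3 times, with log2 fold changes of -2.504 ± 0.66 at 1 h (adjusted p = 0.0123), -3.07 ± 0.68 at 3 h (0.00507) and -2.03 ± 0.64 at 6 h (0.0218). With 0 h replicate 3 left out these were -3.00 ± 0.44, -3.57 ± 0.46 and -2.53 ± 0.43, the value at 3 h being an 11.9-fold fall. The calls at 1 and 3 h held in all 12 fits that left out a library, with adjusted p up to 0.0437 and 0.0226. The call at 6 h was lost without 0 h replicate 1 (0.0759), 0 h replicate 2 (0.0602), 6 h replicate 2 (0.0672) or 6 h replicate 3 (0.0723).

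GSY2, the main glycogen synthase (YLR258W, chrXII:660716-662833), was at 721, 606 and 177 CPM at 0 h, at 250.1, 193 and 162 at 1 h, at 224, 167 and 129 at 3 h, and at 379, 219 and 172 at 6 h. Replicate 3 at 0 h lay within the range of the libraries at every later time, and the other 2 lay above them all. GSY2 fell at 3 h by 1.54 ± 0.51 on the log2 scale (adjusted p = 0.0328) and had log2 fold changes of -1.32 ± 0.51 at 1 h (0.0598, or 0.0233 by DESeq2) and -0.97 ± 0.50 at 6 h (0.124). The call at 3 h was lost without 0 h replicate 1 (0.119), 0 h replicate 2 (0.0871), 3 h replicate 2 (0.0821) or 3 h replicate 3 (0.101), with total counts (0.0578) and in a fit of the 2 times alone (0.0621). In the fit without 0 h replicate 3 it fell at all 3 times, with log2 fold changes of -1.76 ± 0.37 (0.00538), -1.97 ± 0.37 (0.00285) and -1.41 ± 0.37 (0.0114).

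GLC3, the branching enzyme (YEL011W, chrV:133120-135234), was at 342, 293 and 49.1 CPM at 0 h, at 129, 78.4 and 57.7 at 1 h, at 119.7, 80.0 and 64.6 at 3 h, and at 329.6, 188 and 156 at 6 h. Here 0 h replicate 3 was the lowest of all 12 libraries, and 0 h replicates 1 and 2 lay above all libraries at 1 and 3 h. At 6 h the range again reached that of 0 h. The log2 fold changes were -1.38 ± 0.65 at 1 h, -1.38 ± 0.65 at 3 h and -0.03 ± 0.63 at 6 h, with adjusted p of 0.113, 0.107 and 0.972. Leaving out 0 h replicate 3, GLC3 fell at 1 h (-1.89 ± 0.44, adjusted p = 0.00891) and at 3 h (-1.89 ± 0.44, 0.00825), and from 3 to 6 h it rose by 1.35 ± 0.41 (0.0285). At 6 h its value without that library was -0.54 ± 0.43 (0.309), and with total counts it was 0.25.

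GPH1, the glycogen phosphorylase (YPR160W, chrXVI:861306-864014), had the highest coefficient of variation of the 10 at 0 h, 72.1%, with 974, 822 and 114 CPM. It was at 176, 107 and 77.6 CPM at 1 h, at 155, 93.2 and 63.95 at 3 h, and at 445, 205 and 181 at 6 h. As for the synthases, the 2 higher libraries at 0 h lay above all 9 exposed ones, and 0 h replicate 3 lay between those at 1 h and between those at 3 h. GPH1 fell at 1 h (log2 fold change -2.41 ± 0.76, adjusted p = 0.0283) and at 3 h (-2.62 ± 0.77, 0.0199), and its log2 fold change at 6 h was -1.20 ± 0.73 (0.181). The call at 1 h was lost without 0 h replicate 1 (0.0909), 0 h replicate 2 (0.0714), 1 h replicate 2 (0.0805) or 1 h replicate 3 (0.0857) and in a fit of the 2 times alone (0.0617). The call at 3 h was lost without 0 h replicate 1 (0.0678), 0 h replicate 2 (0.0532), 3 h replicate 2 (0.0606) or 3 h replicate 3 (0.0681). The fit without 0 h replicate 3 gave a fall at all 3 times, of -2.94 ± 0.54 (0.00269), -3.15 ± 0.55 (0.00182) and -1.74 ± 0.52 (0.0209), and GPH1 then rose from 3 to 6 h by 1.41 ± 0.50 (0.0490).

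**Figure D2:**
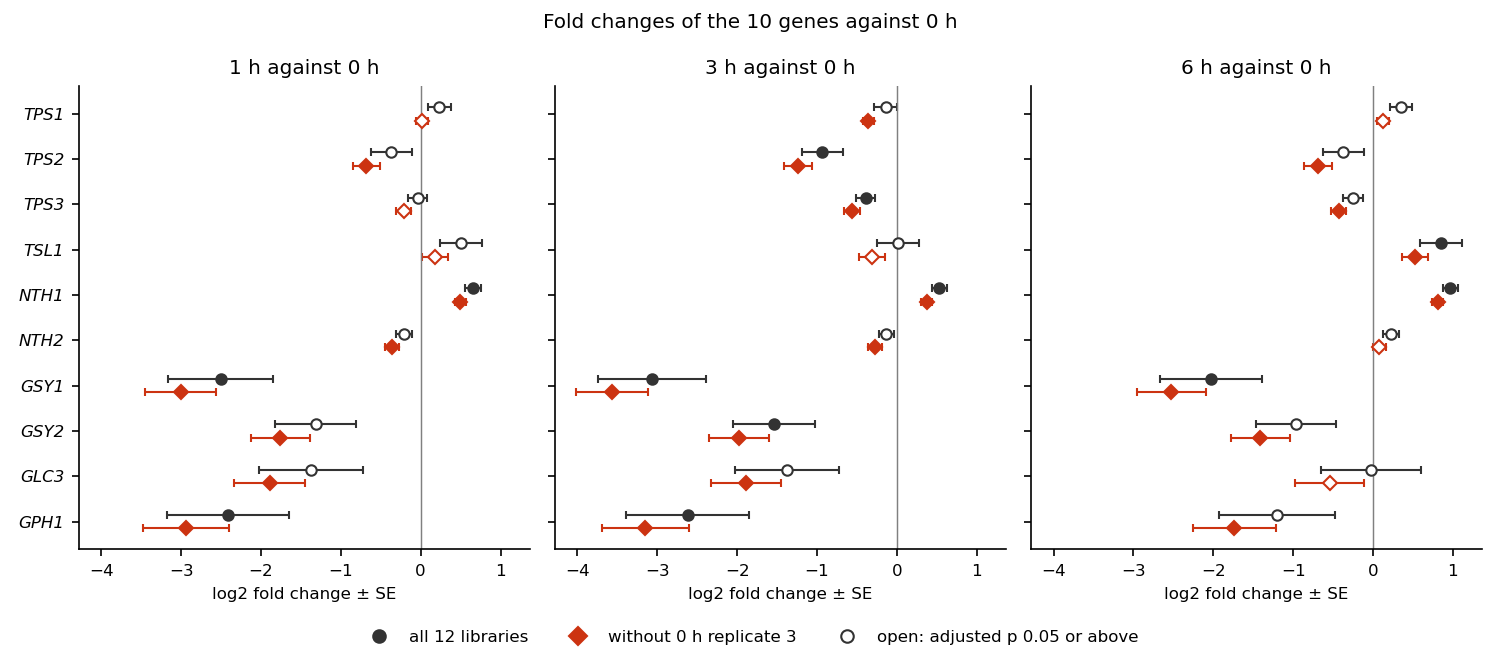
Log2 fold change with its standard error for each gene at 1, 3 and 6 h against 0 h, from all 12 libraries (circles) and without 0 h replicate 3 (diamonds), with filled markers for an adjusted p under 0.05. NTH1 is filled to the right of 0 in all 3 panels under both fits, and the glycogen genes lie to the left with errors that shrink when 0 h replicate 3 is left out, apart from GLC3 at 6 h, at -0.03 from all libraries.

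In 3 pairs of paralogs, the share of each partner changed with time. The log2 ratio of the normalised counts within a library was compared over the 4 times by an exact permutation test of the F statistic, which takes no direction, over 15400 assignments of the libraries, whose smallest possible p is 6.49e-05, with adjustment over the 3 pairs. NTH1 to NTH2 had a mean log2 ratio of 2.89 ± 0.09 (SD, n = 3) at 0 h, 3.76 ± 0.07 at 1 h, 3.55 ± 0.08 at 3 h and 3.63 ± 0.12 at 6 h (exact permutation p = 0.00195, adjusted 0.00195). All 3 libraries at 0 h, between 2.82 and 2.99, lay below all 9 later ones.

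GSY1 to GSY2 had log2 ratios of -0.23, -0.16 and -0.80 at 0 h, with ratios of -1.22, -1.55 and -1.69 after 1 h and -1.67, -1.82 and -1.93 after 3 h. At 6 h they were -1.29, -1.43 and -1.22. Every library at 0 h, replicate 3 included, lay above every later one, and leaving that library out kept the test past the threshold (exact permutation p = 0.00110, adjusted 0.00166). TSL1 to TPS3 had a mean log2 ratio of 0.30 ± 0.39 (SD, n = 3) at 0 h, 0.91 ± 0.08 at 1 h, 0.77 ± 0.09 at 3 h and 1.47 ± 0.06 at 6 h (exact permutation p = 1.30e-04, adjusted 3.90e-04). The 3 libraries at 6 h, at 1.49, 1.40 and 1.51, lay above all others, and 0 h replicate 3, at -0.14, below all others. All 3 tests passed the threshold without any 1 of the 12 libraries and with a prior count of 0.5 in place of 2. Identity between the coding sequences was 72.5% over 2149 aligned bases for NTH1 and NTH2, 73.5% over 2061 for GSY1 and GSY2 and 68.8% over 1729 for TSL1 and TPS3. How the counting treated reads that fit several places is not given in the sources used here.

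**Figure D3:**
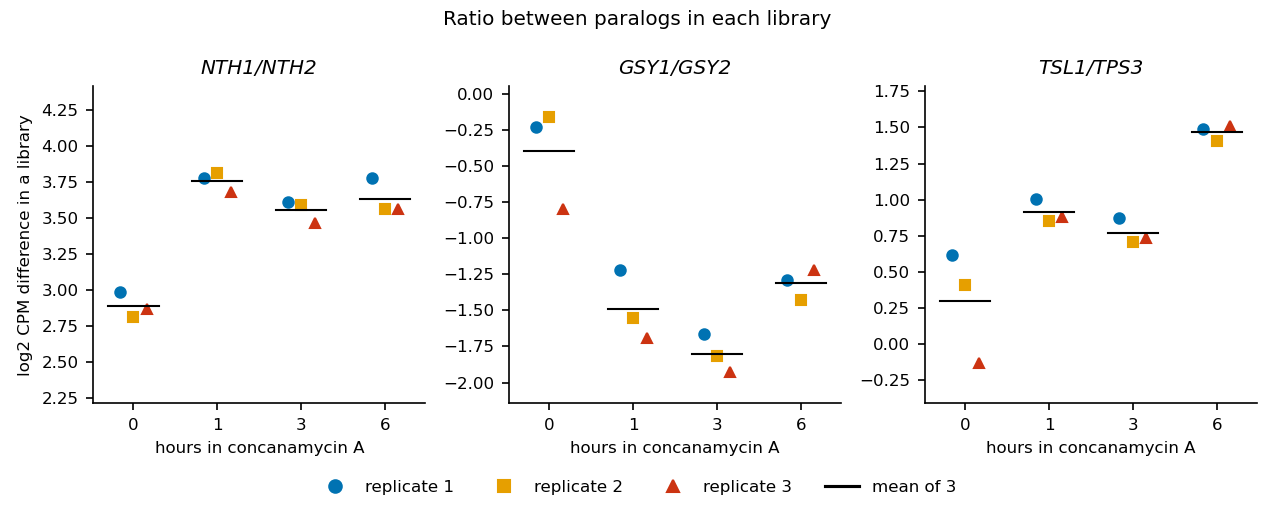
Log2 ratio of the CPM of paralogs in each of the 12 libraries against hours in concanamycin A, with the mean of 3 as a bar and the same span of the axis in each panel. GSY1 relative to GSY2 is lower in all 9 later libraries than in any at 0 h, and TSL1 relative to TPS3 is highest in the 3 at 6 h.

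Levels per length placed the genes in a different order at each end of the course. In CPM per kilobase of coding sequence, TPS1 was the highest at 0 h, at 331 ± 77.5 (SD, n = 3), followed by TPS2 at 275 ± 99.4, GSY2 at 237 ± 135, GPH1 at 235 ± 169.5 and GSY1 at 198 ± 131. NTH1 at 122 ± 19.0, GLC3 at 108 ± 74.1, TSL1 at 108 ± 42.5 and TPS3 at 86.7 ± 15.04 came next. NTH2 was the lowest, at 15.8 ± 2.25, and the ranges over the 3 libraries overlapped for every pair of neighbours in this order except TPS3 and NTH2. At 6 h the order was TPS1 at 422 ± 41.2, NTH1 at 239 ± 16.8, TPS2 at 212 ± 36.5, TSL1 at 194 ± 27.1, GSY2 at 121 ± 51.2, GLC3 at 106 ± 43.8, GPH1 at 102 ± 53.8, TPS3 at 72.8 ± 9.11, GSY1 at 48.6 ± 21.1 and NTH2 at 18.5 ± 0.417. The range of TPS1 at 6 h lay above that of NTH1, and that of NTH2 below that of GSY1, and the ranges of all other neighbours overlapped.

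Correlations over the 12 libraries, which share culture times and replicate order, describe how alike the genes were. Among GSY1, GSY2, GPH1 and GLC3 the 6 correlations of log2 CPM were 0.776 to 0.972, and without 0 h replicate 3 they were 0.861 to 0.986. NTH1 had correlations of -0.382 to 0.232 with these 4 genes, and of -0.508 to -0.0798 without that library. Against the mean of the 10 genes, GPH1 had a correlation of 0.971, GLC3 0.959, GSY2 0.940, TPS2 0.936, TSL1 0.560 and NTH1 0.074, the last being -0.215 without 0 h replicate 3. That mean includes the gene itself and was not scaled, so genes with wide swings, such as the glycogen genes, weigh more in it. Outside the 10, the features most like this mean among 5116 with at least 10 CPM on average were PGM2 (0.988), the phosphoglucomutase that supplies glucose-1-phosphate, RGI1 (0.978), a protein of energy metabolism, NCE103 (0.977), the carbonic anhydrase, and MAL31 (0.974), a maltose transporter. They were followed by GIS1 (0.966), GID8 (0.965), AIM17 (0.964) and PYK2 (0.959), and the 8 values were 0.955 to 0.988 without 0 h replicate 3.

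Of 36 other genes of the pathway, from glycogen priming and the glucose phosphates to the kinases and phosphatase that control glycogen synthase and trehalase, 12 rose and 7 fell at 1 h, beside 24.5% of all features higher and 23.4% lower. At 3 h 10 rose and 10 fell, beside 26.3% and 24.5%, and at 6 h 15 rose and 6 fell, beside 33.0% and 28.9%. Their median log2 fold changes were 0.10, -0.02 and 0.25. In the fit without 0 h replicate 3 the counts were 10 and 15 at 1 h, beside 23.3% and 29.2%, 9 and 18 at 3 h, beside 26.1% and 30.2%, and 12 and 10 at 6 h, beside 31.2% and 32.4%. With total counts 18 rose and 3 fell at 1 h, beside 45.9% and 10.7% of features, 18 and 4 at 3 h, beside 63.7% and 8.87%, and 24 and 4 at 6 h, beside 58.4% and 14.4%. In 33 of these 36 genes 0 h replicate 3 was lower than both others at 0 h, beside 40.2% of all features.

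GLG1, a glycogenin that primes glycogen chains, was at 142, 117 and 29.2 CPM at 0 h and between 26.8 and 51.3 in the 9 later libraries. It fell at 1 h (log2 fold change -1.42 ± 0.47, adjusted p = 0.0334), 3 h (-1.60 ± 0.48, 0.0202) and 6 h (-1.24 ± 0.47, 0.0441). PGM2 was at 372, 311 and 74.8 CPM at 0 h and at 109, 79.9 and 70.1 at 3 h, when it fell by 1.55 ± 0.54 (0.0384). GAC1, a subunit that targets the phosphatase Glc7 to glycogen synthase, fell at 1 h (-1.74 ± 0.63, 0.0438) and 3 h (-1.71 ± 0.63, 0.0451). EMI2, a paralog of glucokinase, fell at 1 h (-1.40 ± 0.42, 0.0214) and 3 h (-1.42 ± 0.42, 0.0196). In all 4 genes 0 h replicate 3 lay far below the other 2 libraries at 0 h, as in the glycogen genes above. Without it the log2 fold changes of GLG1 were -1.89 ± 0.23 at 1 h (2.00e-04), -2.06 ± 0.23 at 3 h (1.14e-04) and -1.70 ± 0.23 at 6 h (2.30e-04). All 4 genes then fell at all 3 times, with adjusted p of 0.00275, 0.00158 and 0.0263 for PGM2, 0.00542, 0.00538 and 0.0405 for GAC1, and 2.08e-04, 1.82e-04 and 5.14e-04 for EMI2.

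Each of the 8 calls made with all 12 libraries was lost without 0 h replicate 1, with adjusted p of 0.0782 to 0.180, and without 0 h replicate 2, with 0.0601 to 0.114. The directions stayed, and without 0 h replicate 2 the log2 fold change at 1 h was -1.30 for GLG1, -1.61 for GAC1 and -1.27 for EMI2, and at 3 h -1.41 for PGM2. All 8 were also lost in a fit of the 2 times alone, and with total counts GLG1 at 1 and 6 h (0.0578 and 0.102), GAC1 at 1 and 3 h (0.0622 and 0.0728) and PGM2 at 3 h (0.0676) were lost. Leaving out other libraries, the call of GLG1 was also lost without any library at 1 h for its value at 1 h (0.0562 to 0.0941), without 3 h replicates 2 (0.0580) or 3 (0.0689) for that at 3 h, and without any library at 1, 3 or 6 h for that at 6 h (0.0543 to 0.128). PGM2 at 3 h also lost its call without 1 h replicate 2 (0.0506) or any library at 3 h (0.0538 to 0.110). EMI2 lost it without 1 h replicates 2 (0.0632) or 3 (0.0639) at 1 h, and without 3 h replicates 2 (0.0521) or 3 (0.0651) at 3 h. GAC1 kept its call in 4 of the 12 fits at 1 h and in 3 of the 12 at 3 h, with adjusted p up to 0.167 and 0.175. It also lost it at both times without any library at 1 h, 3 h replicate 2 or 6 h replicates 2 or 3, and at 3 h without 3 h replicate 3.

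ATH1, the acid trehalase that acts on trehalose outside the cytosol, also rose at every time. It was at 53.8, 46.9 and 35.8 CPM at 0 h, at 76.0, 77.2 and 74.6 at 1 h, at 79.5, 66.1 and 71.9 at 3 h, and at 116, 91.0 and 92.3 at 6 h, with all 9 exposed libraries above all 3 at 0 h. Its rise was 0.73 ± 0.13 on the log2 scale at 1 h (adjusted p = 7.14e-04), 0.66 ± 0.13 at 3 h (0.00142) and 1.13 ± 0.13 at 6 h (1.18e-05). DCS1, an inhibitor of neutral trehalase that also hydrolyses mRNA caps, rose by 0.77 ± 0.16 at 1 h (0.00173), 0.59 ± 0.16 at 3 h (0.00839) and 1.05 ± 0.16 at 6 h (1.25e-04). SGA1, a glucoamylase of sporulating cells, rose by 1.78 ± 0.28 at 6 h (8.88e-05) from a low level, with 3.20, 3.32 and 1.47 CPM at 0 h and 9.58, 9.96 and 8.44 at 6 h. PIG1, a further targeting subunit of Glc7, rose by 0.94 ± 0.13 at 6 h (3.16e-05). With 0 h replicate 3 left out the rises at 6 h were 0.94 for ATH1, 0.82 for DCS1, 1.48 for SGA1 and 0.78 for PIG1, and all 4 passed the threshold, as they did in each of the 12 fits that left out a library.

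**Figure D4:**
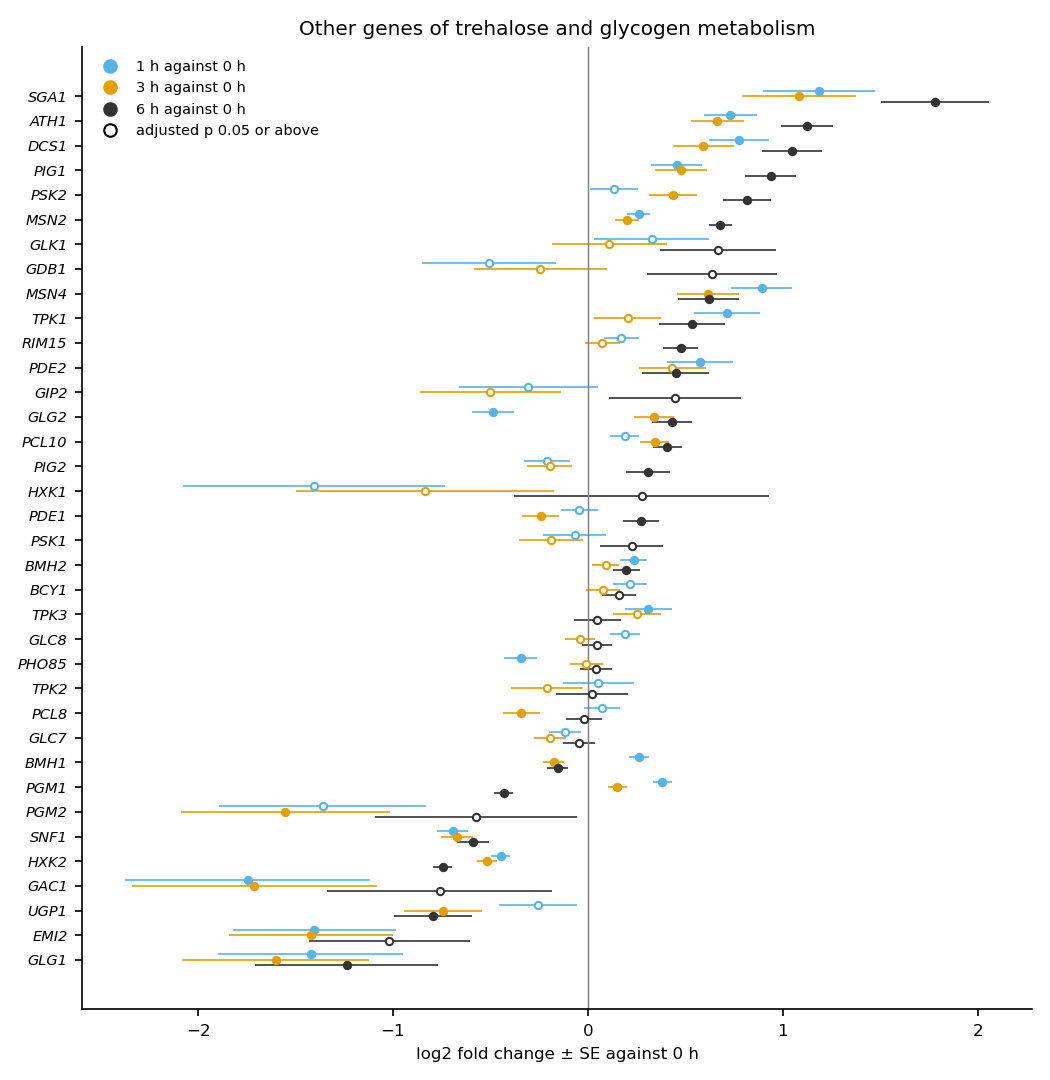
Log2 fold change with its standard error at 1, 3 and 6 h against 0 h for 36 other genes of the pathway, ordered by the value at 6 h, with filled markers for an adjusted p under 0.05. The glucoamylase SGA1, the acid trehalase ATH1 and DCS1 lie at the top, and GLG1, EMI2 and UGP1 at the bottom.

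Other known targets of Msn2 and Msn4 were set beside the 10 genes. Of 25 such stress genes, 7 rose and 4 fell at 1 h, beside 24.5% of all features higher and 23.4% lower. At 3 h 8 rose and 3 fell, beside 26.3% and 24.5%. At 6 h 17 rose and 1 fell, beside 33.0% and 28.9%, and their median log2 fold change was 1.09. From 3 to 6 h 20 of the 25 rose, beside 21.0% of all features. Over the same interval 12 of 20 glucose-repressed genes rose, and 10 of the 36 other pathway genes, a share nearer that background. HSP26, a small heat shock protein, went from 56.7, 60.8 and 37.1 CPM at 0 h to 1079.8, 1013 and 941 at 6 h, and HSP12, a membrane stress protein, from 54.3, 48.7 and 5.76 to 558, 492 and 473. Their log2 fold changes at 6 h were 4.29 ± 0.15 (adjusted p = 2.84e-10) and 3.79 ± 0.53 (2.20e-04). In the same 3 libraries GSY1 was at 155, 81.1 and 73.8 CPM, below 0 h replicates 1 and 2 and on both sides of 0 h replicate 3, at 102. TPS1, TSL1, NTH1 and NTH2 lay above all 3 libraries at 0 h there. The share of all features that did so is not given here, and 33.0% were called higher at 6 h.

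In these lists 0 h replicate 3 also stood low. It was singled out for its low stress genes, so their count is no separate finding. In it 24 of the 25 stress genes and 17 of 20 glucose-repressed genes were lower than in both other libraries at 0 h. The same held for 3 of 137 cytosolic ribosomal protein genes and for 40.2% of all features. The summed level of the stress genes was 2842, 2807 and 1536 CPM in replicates 1, 2 and 3 at 0 h. It lay between 2320.3 and 2768 in the 6 libraries of 1 and 3 h, and between 5321 and 6492 at 6 h. That of the 10 trehalose and glycogen genes was 5260.0, 4707 and 1911 at 0 h, between 2016 and 3322 over 1 and 3 h, and between 3047 and 4319 at 6 h. The ribosomal protein genes summed to 170512, 175297 and 196003 CPM at 0 h and to 67321 to 95593 in the later libraries, and 133 of 137 fell at 1 h, 134 at 3 h and 134 at 6 h. Of the 20 glucose-repressed genes, 1 rose and 6 fell at 1 h, beside 24.5% of all features higher and 23.4% lower. At 3 h 2 rose and 6 fell, beside 26.3% and 24.5%, and at 6 h 8 rose and 1 fell, beside 33.0% and 28.9%. In the absence of 0 h replicate 3 these counts were 1 and 13, 1 and 12, and 6 and 4, and those of the stress genes 7 and 12, 7 and 10, and 18 and 1. The shares of all features higher and lower were then 23.3% and 29.2%, 26.1% and 30.2%, and 31.2% and 32.4%. The part of these stress and glucose-repressed genes in the levels of the glycogen genes was not tested.

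**Figure D5:**
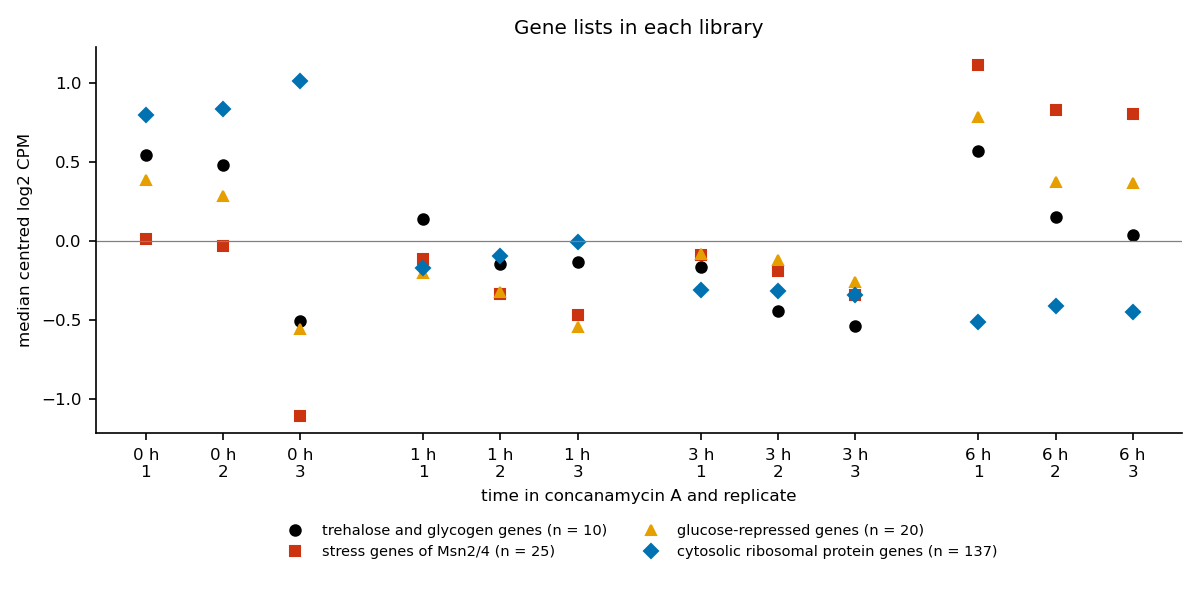
Median log2 CPM of each gene list, after centring each gene on its mean over the 12 libraries, for every library by time and replicate. In 0 h replicate 3 the trehalose and glycogen genes, the stress genes and the glucose-repressed genes are all low, and at 6 h the stress genes stand highest of the 4 lists.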

How the data were processed

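RNA sequencing of total RNA was analysed in 12 libraries, grouped by the hours of treatment in the labels. The values deposited by the authors are raw read counts, not normalized, made with STAR 2.5.2b and featureCounts 1.5.1 on build R64, per the submitters' processing notes. The annotation release, strand setting and treatment of reads that map to several places were not given in the sources used here. Of 6216 features, 5615 passed edgeR's filter on low counts. The test was that of edgeR 4.0.16, under R 4.3.3 (TMM, robust quasi-likelihood fit of all 12 libraries, 8 residual degrees of freedom), with Benjamini-Hochberg adjustment over all features tested and a threshold of 0.05. CPM use TMM-scaled totals, and log2 CPM a prior count of 2. A standard error is the log2 fold change over the square root of F. Depth was 8508894 to 11008709 counts. Paralogs were aligned with blastn 2.17.0, and elements and loci were read from RefSeq's R64 genome.

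The genes and lists were chosen with earlier results of these data known. Named were all 10 genes, up to 8 other pathway genes and up to 4 of each other list by largest change past the threshold, of which part are printed, and the 8 features most correlated with the mean of the 10. Alternatives were total counts, other size factors, DESeq2 1.42.0, 2 filters, a fit of 2 times, nuclear reading frames only, a replicate block and each library left out. The fits were also run on simulated counts with known changes. Those counts held no library set apart at 0 h and no effect of the replicate letter. They therefore say nothing of calls here that depend on either.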

Additional observations from a re-analysis of the deposited data

How the results depend on the processing

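The cause of a change between settings was not tested. Total counts in place of TMM gave a median log2 fold change of all features of 0.21, 0.35 and 0.34 at the 3 times against 0 h. Of the 10 genes it then gave 3 higher at 1 h, beside 45.9% of features, and 2 lower at 3 h (8.87%). It gave 4 higher at 6 h (58.4%) and 0 lower from 1 to 3 h (9.83%). Among other pathway genes 3 were lower at 1 h, 18 higher and 4 lower at 3 h and 24 higher at 6 h. Of stress genes 2, and of glucose-repressed genes 2, were lower at 1 h, and of the latter 4 were higher and 3 lower at 3 h. It turned TPS3 at 1 h (0.17) and 6 h (0.041), TPS1 (0.19) and NTH2 (0.20) at 3 h, and GLC3 at 6 h (0.25) and from 1 to 3 h (0.11).

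Fits of 2 times alone gave 1 lower at 1 h, beside 19.8% of features, 1 higher at 6 h (25.9%) and 5 lower from 1 to 3 h (24.4%). DESeq2 gave 3 lower at 1 h, beside 23.1% of features, and 3 higher and 2 lower at 6 h (30.5% and 29.5%). From 1 to 3 h it gave 2 lower (17.6%). A minimum of 10 CPM in 3 libraries gave 4 higher at 6 h, beside 33.7% of features, and turned GLC3 from 1 to 3 h (0.0014).

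Libraries with the same replicate letter correlated at -0.077 to 0.461 in their deviations, above 0.1 in 12 of 18 pairs, against 6 of 36 with different letters. Pairs of letter A and of letter C lay at 0.238 to 0.461, and those of letter B at -0.077 to 0.072. As not all 18 passed 0.1, the main fit holds no term for the letter, although 9 of 12 libraries correlated best with their own letter. A spread shared by replicates 1 or 3 is therefore left in that fit. With a replicate block 1 gene rose and 3 fell at 1 h, beside 28.0% and 26.3% of features, 1 rose and 5 fell at 3 h (29.5% and 26.8%), 4 rose and 3 fell at 6 h (36.3% and 30.6%), 3 fell from 1 to 3 h (21.4%) and 6 rose from 3 to 6 h (25.0%). Against 0 h the calls gained were GSY2 at 1 h (0.0190) and 6 h (0.0415) and, at 6 h, TPS1 (0.0124), TPS3 (0.00594) and NTH2 (0.0496). All 10 changed over the 4 times, beside 84.3%, and GLC3 turned at 6 h (0.13) and from 1 to 3 h (0.035).

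Leaving out 1 library, the counts of the 10 genes were 1 to 2 higher and 1 to 6 lower at 1 h, 1 to 8 lower at 3 h, 1 to 3 higher and 0 to 5 lower at 6 h, 0 to 4 lower from 1 to 3 h, 2 to 7 higher from 3 to 6 h and 3 to 10 over the 4 times. Of the 5629 to 5642 features tested in these fits, 1101 to 1649, 1148 to 1706 and 1492 to 1826 were lower at the 3 times. Higher at 6 h were 1547 to 1858, and 4109 to 4730 changed over the 4 times. The comparison of 1 h with 0 h gave 1041 to 1404 features higher. Between 1 and 3 h, 743 to 1187 features fell, while 854 to 1406 rose between 3 and 6 h. Other pathway genes were 4 to 15, 4 to 18 and 4 to 10 lower at the 3 times. Stress genes were 2 to 12 lower at 1 h, and 5 to 8 higher and 3 to 10 lower at 3 h. Glucose-repressed genes were 3 to 13, 2 to 12 and 0 to 4 lower, with 1 to 2 higher at 3 h, and ribosomal protein genes 0 to 1 higher at 1 h. Signs turned for TPS3 at 1 h (-0.21 to 0.057), TSL1 at 3 h (-0.31 to 0.28), GLC3 at 6 h (-0.54 to 0.39), and GPH1 (-0.61 to 0.17) and GLC3 (-0.29 to 0.37) from 1 to 3 h. Without 0 h replicate 3, the counts of the 10 genes that fell were the highest of these.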
